A study of Mus musculus with 6 samples.

Results

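The 36 genes described here encode the enzymes of glycolysis, the pyruvate dehydrogenase complex with 2 of its kinases, the pentose phosphate pathway, and 3 genes linked to the response to low oxygen. They were taken from the deposited table by gene name and sorted by pathway step; they fill 37 of its 54532 rows, because Aldoa has 2 rows. All 36 passed the filter on low counts, among 16075 genes tested. The libraries came from CD4+ T cells of the spleen of C57BL/6 mice with experimental autoimmune encephalomyelitis (EAE), a model of multiple sclerosis, taken in the acute phase. There were 3 Ogt-KD mice, of genotype Ogtfl/wt CD4-Cre, and 3 control mice labelled wild type. The Ogt-KD mice carry 1 floxed and 1 unmodified allele of Ogt, and the Cre recombinase is driven by Cd4 sequences, which are also active in precursors of CD8 T cells. The labels name neither Cre nor a floxed allele in the controls, so an effect of Cre and an effect of Ogt cannot be told apart. The labels state no ages.

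Glycolysis splits glucose into pyruvate and yields ATP and NADH. Pyruvate is then either reduced to lactate or passed into mitochondria, where the pyruvate dehydrogenase complex makes acetyl-CoA. The pentose phosphate pathway branches off at glucose 6-phosphate and supplies NADPH and ribose. Activated T cells are known to raise glucose uptake and lactate output, in part through the transcription factor HIF-1, and the enzyme encoded by Ogt attaches N-acetylglucosamine, made from a glycolytic intermediate, to proteins.

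Total counts ran from 18127031 to 25683453 per library, and the first principal component put Ogt-KD replicates 1 and 2 at -21.8 and -23.9, control replicates 1 and 2 at -1.93 and 3.35, and replicate 3 of Ogt-KD and control at 16.9 and 27.4. Ogt itself did not separate the groups, with normalised read counts (CPM, counts scaled to a common library size) of 599.2, 627.9 and 562.4 in the controls, replicates 1 to 3 in order, and of 661.9, 598.8 and 458.6 in the Ogt-KD libraries. Its log2 fold change was -0.06, with an SE of 0.15 and an edgeR adjusted p of 0.981. These totals of Ogt reads do not show how many carry the deleted part. Ogt lies on chromosome X, and the totals do not show whether every cell or only some cells lost Ogt. The T cell markers were present in every library, Cd4 at 738.5 to 902.7 CPM and Cd3e at 241.3 to 329.1 CPM. Of the 12 T cell markers, 5 had a log2 fold change above 0 (median -0.05). Their sum was 5611 to 6016 CPM in control and 5255 to 5669 CPM in Ogt-KD. Summed macrophage markers were highest in both replicate 3 libraries, at 4360 CPM in that control and 4071 CPM in that Ogt-KD library against 693.3 to 1864 CPM in the other 4, and 0 of 9 had a log2 fold change above 0 (median -0.58). All 20 cell cycle genes had a log2 fold change above 0 (median 0.80, 16 at an unadjusted p under 0.05), and their sum was 893.6 to 1203 CPM in control and 1351 to 1769 CPM in Ogt-KD. Of the T cell activation genes 11 of 13 were above 0 (median 0.50, 7 at an unadjusted p under 0.05), with sums of 956.1 to 1242 CPM and 1259 to 1463 CPM in the same order. All 12 dendritic cell and antigen presentation genes were above 0 (median 1.05, 4 at an unadjusted p under 0.05), with sums of 573.4 to 1217 CPM and 1048 to 2818 CPM. So were the 11 erythroid precursor genes tested (median 1.55, 4 at an unadjusted p under 0.05), with sums of 18.85 to 54.24 CPM and 46.63 to 217.2 CPM, and all 8 B cell (median 0.35) and 9 neutrophil genes (median 0.41). Of the CD8 and NK cell genes tested, 5 of 6 were above 0 (median 0.18, 1 at an unadjusted p under 0.05). Their sums were 55.31 to 66.37 CPM in control and 71.57 to 100.6 CPM in Ogt-KD. Over all genes tested, 7.52% reached an unadjusted p under 0.05 in edgeR. None of these markers passed adjustment in edgeR, none was at 0 in all libraries, and their part in the results on the members was not tested. In bulk RNA, fewer cells of a type and less RNA per cell cannot be told apart.

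The question was whether transcripts of these pathways differed between Ogt-KD and control cells. None of the 36 genes passed the edgeR quasi-likelihood test at an adjusted p under 0.05, against 1 of the 16075 genes tested (0.00622%), and the lowest adjusted p among them was 0.686, for Pdk1. None reached an unadjusted p under 0.05 either, a level that 1209 genes reached (7.52%, made up of 5.04% higher and 2.48% lower in Ogt-KD). In CPM, the 3 Ogt-KD values overlapped the 3 control values for all 36 genes, whereas they did not overlap for 13.3% of all genes (7.43% higher and 5.88% lower in Ogt-KD). DESeq2 also called none of the 36 (0.637% of the genes it adjusted), nor did limma-voom (0.00622%). In the authors' deposited table the lowest p among them was 0.0574, for Hk2, with an adjusted p of 0.713. The authors' log2 fold change for Hk2, 0.5633, equals that of the DESeq2 fit, so these results are not separate support.

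The log2 fold changes, positive where Ogt-KD was higher, were small and most were tightly bounded. They ran from -0.31 for Pdk1 to 0.57 for Hk2, with a median of 0.06 against a median near 0 over all genes; 28 of the 36 were within 0.2 of 0, and 18 within 0.1. Values above 0 were found for 23 genes (63.9%), against 49% of all genes. The median SE was 0.129, lower than the 0.198 over all genes. For 27 of the 36 (75%) the 95% confidence interval lay within a 1.5-fold change in either direction, as it did for 45.7% of all genes, and for 32 it lay within 2-fold (88.9%, against 70.4%). The 4 genes whose interval reached beyond 2-fold were Hk2, Egln3, Gapdh and Bnip3. At this precision no difference was detectable for any member, which does not show that the groups were equal.

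**Figure D1:**
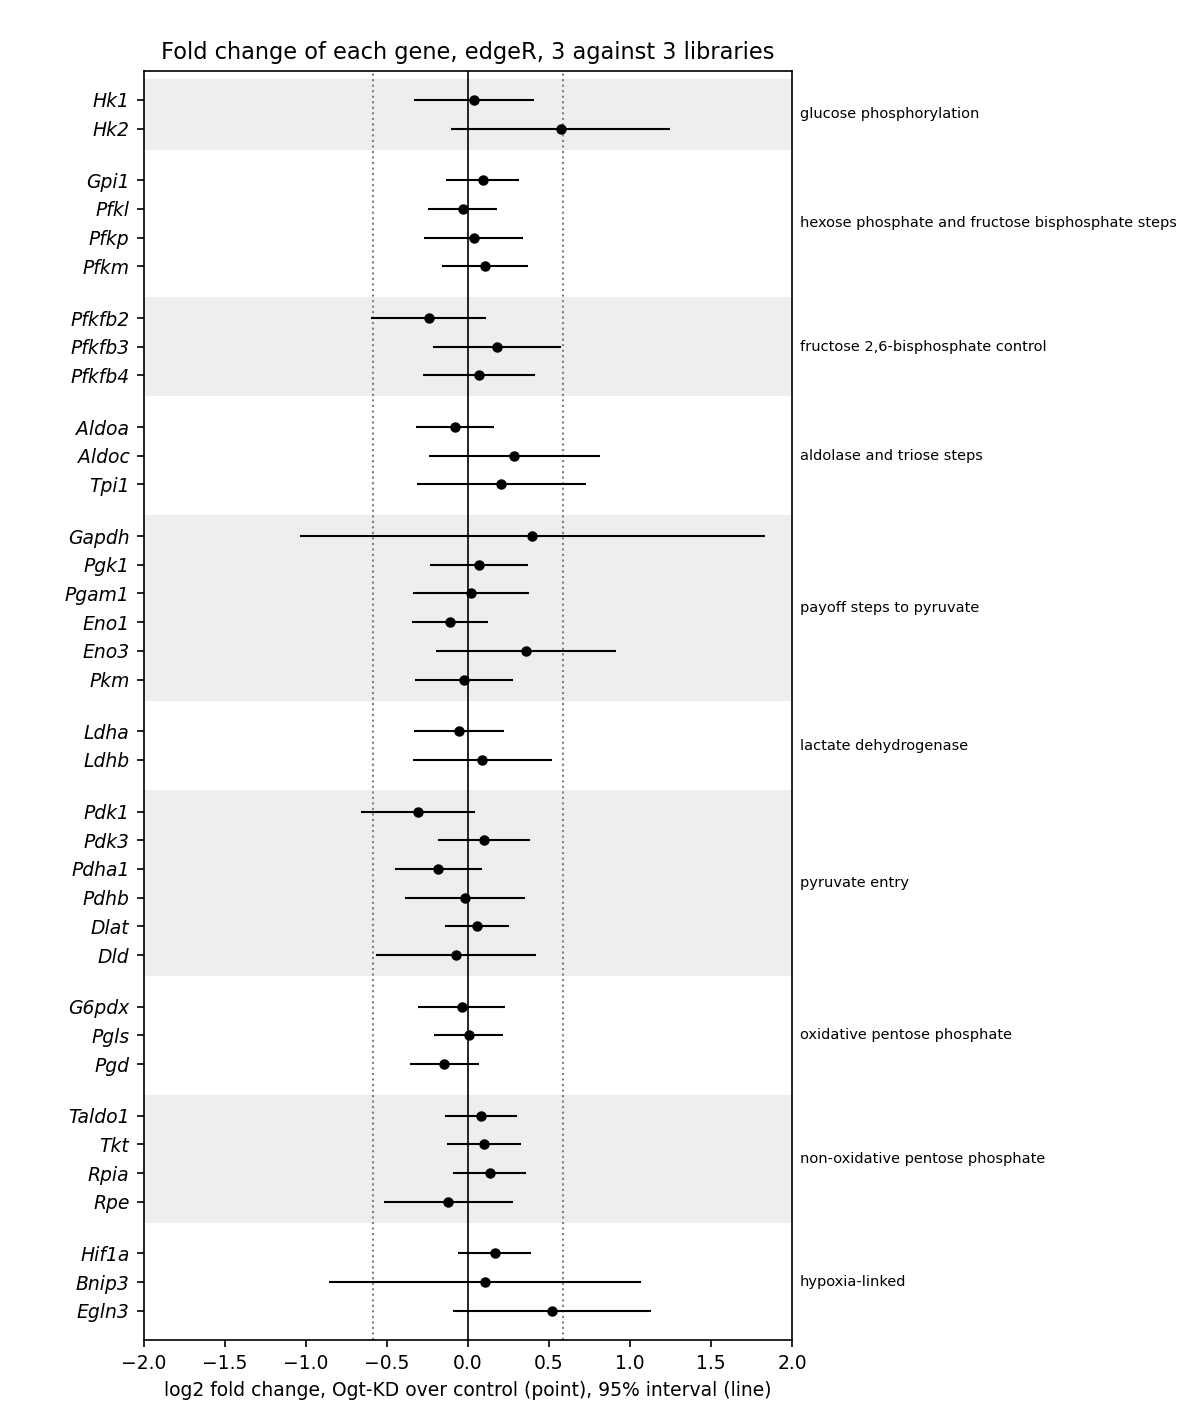
Log2 fold change, positive where Ogt-KD is higher, for the 36 genes, ordered by pathway step, with lines for the 95% confidence interval from edgeR and dotted lines at a 1.5-fold change. Every interval includes 0, and those of Gapdh and Bnip3 are the widest.

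Levels between genes were compared as FPKM, the authors' count scaled by gene length and by 1 constant per library. The most abundant were Ldha with a mean of 185.7 FPKM over the 6 libraries, Pkm with 169.9 FPKM, Aldoa with 106.3 FPKM and Eno1 with 98.61 FPKM. Taldo1 of the pentose phosphate pathway was next at 97.88 FPKM. Hk2, Pfkfb4, Pfkfb2, Bnip3 and Aldoc were lowest, from 2.322 FPKM down to 1.212 FPKM. Together the 36 genes summed to 1185, 1205 and 1314 FPKM in the 3 controls, in replicate order, and to 1193, 1204 and 1291 FPKM in the 3 Ogt-KD libraries. In FPKM, the summed level thus stood highest in replicate 3 of each group and overlapped between groups. As a share of all counts, these genes held 0.495%, 0.51% and 0.541% in control and 0.537%, 0.535% and 0.524% in Ogt-KD. That share also overlapped between groups. Replicate 3 had the highest share within control but the lowest within Ogt-KD.

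**Figure D2:**
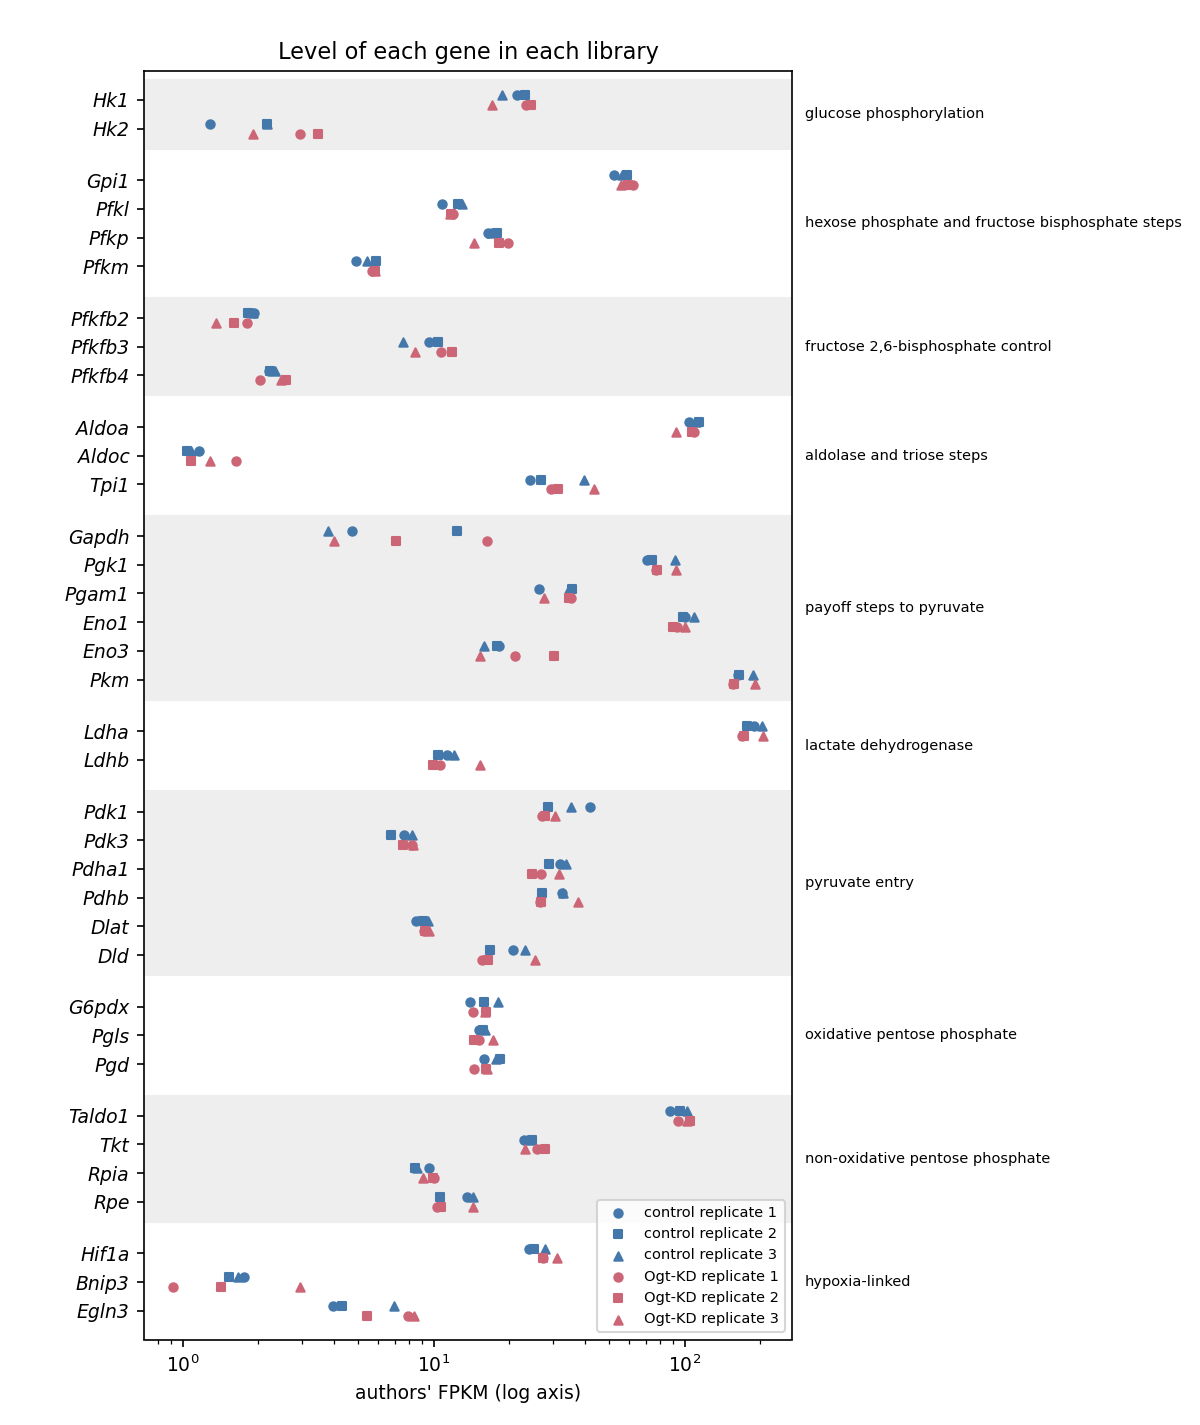
FPKM of each of the 36 genes in each of the 6 libraries, on a logarithmic axis, with control libraries in blue, Ogt-KD libraries in red and the marker shape giving the replicate. Ldha and Pkm reach furthest to the right and Aldoc and Bnip3 furthest to the left, and Gapdh has the widest spread.

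The promoters of Hk2, Egln3, Pdk1 and Ldha are printed because Hk2 and Egln3 had the highest log2 fold changes, Pdk1 had the lowest, and Ldha held the most matches to the hypoxia response element core. Each is 250 bases before a RefSeq start site on GRCm38.p6, written 5′ to 3′ on the gene's strand; for Pdk1 and Ldha it is 1 of 2 listed start sites. Capitals mark matches to ACGTG on either strand, or to the E-box CACGTG, which contains ACGTG on both strands. Hk2 lies on the minus strand at chr6:82774455-82774704, Egln3 on the minus strand at chr12:54203875-54204124, Pdk1 on the plus strand at chr2:71872974-71873223 and Ldha on the plus strand at chr7:46845554-46845803.
Hk2: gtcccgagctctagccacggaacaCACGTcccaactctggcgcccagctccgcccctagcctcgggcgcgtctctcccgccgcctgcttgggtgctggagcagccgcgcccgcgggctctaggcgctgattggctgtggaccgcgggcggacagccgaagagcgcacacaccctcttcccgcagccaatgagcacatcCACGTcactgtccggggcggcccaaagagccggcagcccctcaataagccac
Egln3: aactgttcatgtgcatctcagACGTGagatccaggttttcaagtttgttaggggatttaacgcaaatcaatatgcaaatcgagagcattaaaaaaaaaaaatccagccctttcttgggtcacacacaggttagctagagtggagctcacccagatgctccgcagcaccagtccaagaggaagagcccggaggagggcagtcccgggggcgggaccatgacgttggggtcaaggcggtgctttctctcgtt
Pdk1: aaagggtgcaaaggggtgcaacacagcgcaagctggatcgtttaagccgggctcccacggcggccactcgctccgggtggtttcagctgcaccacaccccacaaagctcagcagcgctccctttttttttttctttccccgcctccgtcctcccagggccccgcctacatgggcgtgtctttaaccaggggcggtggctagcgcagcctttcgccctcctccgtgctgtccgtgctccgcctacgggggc
Ldha: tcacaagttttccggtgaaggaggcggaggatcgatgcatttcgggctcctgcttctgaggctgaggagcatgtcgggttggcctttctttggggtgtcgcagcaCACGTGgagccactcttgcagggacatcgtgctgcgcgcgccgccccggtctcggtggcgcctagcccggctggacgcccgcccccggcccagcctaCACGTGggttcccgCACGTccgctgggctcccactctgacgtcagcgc

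Hk2 held 2 matches to ACGTG, Egln3 held 1, Ldha held 3, and Pdk1 held none in this window. Across all 36 members, 18 of 52 promoter windows held ACGTG (34.6%), against 16.6% of all 32851 windows of the same length. Windows of the same gene can overlap, as for Aldoa, so a site can count more than once. The members include known HIF-1 targets, and the difference in share was not tested. The 14 members with at least 1 match were Hk2, Pfkm, Pfkfb2, Pfkfb3, Aldoa, Pgk1, Pgam1, Pkm, Ldha, Pdk3, Pdhb, Hif1a, Bnip3 and Egln3. CACGTG was found in 6 of the 52 windows (11.5%, against 6.02% of all windows), those of Pfkm, Pfkfb2, Pfkfb3, Ldha, Hif1a and Bnip3. The median log2 fold change was 0.08 for the 14 members with a match to ACGTG (range -0.24 to 0.57, 9 above 0) and 0.05 for the 22 without one (range -0.31 to 0.40, 14 above 0). A match of letters is a description of the sequence and was not tied to any binding data.

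Glucose phosphorylation, the step that traps glucose in the cell, is carried out by hexokinases. Hk1 (chromosome 10, 62268855 to 62379908 on GRCm38), the broadly expressed form, was at 186.2, 197.1 and 161 CPM in control (replicates 1 to 3, the order kept below) and at 201.3, 211.2 and 145.8 CPM in Ogt-KD (log2 fold change 0.04, SE 0.157). Hk1 was lowest in replicate 3 of both groups. Hk2 (chromosome 6, 82725025 to 82774454), the inducible form and a known HIF-1 target, was at 7.764, 12.89 and 13.01 CPM in control and at 17.73, 20.94 and 11.39 CPM in Ogt-KD. Ogt-KD replicates 1 and 2 lay above all controls and replicate 3 lay between them. Its log2 fold change of 0.57 (SE 0.286, 95% interval -0.10 to 1.24), or 1.49-fold, was the highest of the 36 and did not pass the test (edgeR adjusted p = 0.702).

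In the next steps Gpi1, which turns glucose 6-phosphate into fructose 6-phosphate, was at 343.1, 380 and 363.7 CPM in control and at 406.7, 388.1 and 362.3 CPM in Ogt-KD (log2 fold change 0.09, SE 0.096). Ogt-KD replicate 3 fell among the controls. The 3 phosphofructokinases, which commit the sugar to glycolysis, had log2 fold changes of -0.03 for Pfkl, 0.04 for Pfkp and 0.10 for Pfkm, each with an SE of at most 0.130. Exons of Pfkp share 748 bases with Pitrm1 on the other strand, and the sources used here do not state whether counting used strand.

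The Pfkfb enzymes set the level of fructose 2,6-bisphosphate, the main activator of phosphofructokinase. Pfkfb3, whose kinase activity dominates, was at 73.62, 78.21 and 57.12 CPM in control and at 82.15, 90.89 and 63.7 CPM in Ogt-KD. Each Ogt-KD library was above the control library with the same number, but the groups overlapped (log2 fold change 0.18, SE 0.168, edgeR adjusted p = 0.919). Pfkfb2 was at 14.16, 13.21 and 13.91 CPM in control and at 13.27, 11.76 and 9.87 CPM in Ogt-KD, with 1 Ogt-KD library just above the lowest control (log2 fold change -0.24, SE 0.151, edgeR adjusted p = 0.804). FPKM carry the authors' own constant per library in place of edgeR's library size and TMM factor. On that scale the Pfkfb2 values did not overlap, at 1.827 to 1.926 FPKM in control and 1.358 to 1.808 FPKM in Ogt-KD. The separation of this gene thus turns on the scaling. Exons of Pfkfb2 share 1262 bases with Gm29427 on the same strand, a gene with 0 to 2 reads per library. Pfkfb4 had a log2 fold change of 0.07.

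Aldolase cleaves fructose 1,6-bisphosphate into a pair of triose phosphates, and Tpi1 interconverts them. Aldoa was at 306.1, 331.1 and 323.4 CPM in control and at 321.7, 315.2 and 270.6 CPM in Ogt-KD (log2 fold change -0.08, SE 0.102). Only Ogt-KD replicate 3 lay below the controls. The second row named Aldoa held 3 to 12 counts per library and was not tested. Aldoc, the form best known from brain, was at 3.836, 3.383 and 3.549 CPM in control and at 5.388, 3.549 and 4.196 CPM in Ogt-KD, with replicate 2 of Ogt-KD inside the control range (log2 fold change 0.29, SE 0.225, edgeR adjusted p = 0.872). Tpi1 was at 67.77, 73.74 and 109.4 CPM in control and at 81.85, 87.24 and 120.1 CPM in Ogt-KD, highest in replicate 3 of each group (log2 fold change 0.21, SE 0.22, edgeR adjusted p = 0.939). Blocking on the replicate number gave an SE of 0.0792 at a log2 fold change of 0.22, with an edgeR unadjusted p of 0.0292 and an adjusted p of 0.309.

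The payoff steps regain ATP on the way to pyruvate. Pkm, pyruvate kinase and the most abundant of these genes, was at 825.2, 818.4 and 944.5 CPM in control and at 789.2, 793.5 and 958.6 CPM in Ogt-KD. The spread between replicates exceeded the difference between groups (log2 fold change -0.03, SE 0.129, 95% interval -0.33 to 0.28). The table counts the gene Pkm as a whole, so its PKM1 and PKM2 splice forms were not told apart. Eno1, the main enolase, was at 545.9, 529.7 and 587.4 CPM in control and at 507.6, 490.8 and 541.2 CPM in Ogt-KD. Each Ogt-KD library was below its same-numbered control, while replicate 3 of Ogt-KD overlapped control replicate 2 (log2 fold change -0.11, SE 0.0995, edgeR adjusted p = 0.908). Eno3, the enolase best known from muscle, was at 32.24, 30.93 and 27.83 CPM in control and at 37.08, 53.03 and 26.57 CPM in Ogt-KD (log2 fold change 0.36, SE 0.236, edgeR adjusted p = 0.822). Ogt-KD replicate 3 lay below all controls, and the value rested on Ogt-KD replicate 2, without which the log2 fold change was 0.07. Pgk1 and Pgam1, which make the first ATP and move the phosphate group, had log2 fold changes of 0.07 and 0.02.

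Gapdh, which oxidises the triose phosphate and makes NADH, was the least steady of the 36. Its values were chosen for printing after they had been seen. Gapdh was at 19.78, 50.95 and 15.72 CPM in control and at 68.28, 29.45 and 16.54 CPM in Ogt-KD, a 4.34-fold range with the 2 highest values in different groups. The log2 fold change of 0.40 had an SE of 0.608 (95% interval -1.04 to 1.83, edgeR adjusted p = 0.965), and it was -0.33 without Ogt-KD replicate 1 and 1.10 without control replicate 2. At a mean of 8.041 FPKM, Gapdh ranked 28 of 36, far below its neighbours Pgk1 (80.68 FPKM) and Tpi1 (32.5 FPKM). The table holds 177 other genes that match the Gapdh transcript at 90% identity or more over at least 300 bases, 168 of them annotated as pseudogenes. These matching genes, called copies here, held 4138 reads over the 6 libraries, against 4366 reads in Gapdh, or 48.7% of the sum. They include the protein-coding gene Peli2, at 10 to 47 reads per library, so not all of these reads need come from copies of Gapdh. With the copies added, the sum was at 47.91, 83.93 and 48.11 CPM in control and at 103.1, 64.38 and 45.63 CPM in Ogt-KD, a 2.26-fold range, and the log2 fold change was 0.24, with an SE of 0.339 (edgeR adjusted p = 0.957). How the counting treated reads that match several copies is not given, so the level of Gapdh is uncertain in every library. For Ldha, Pkm, Tpi1, Pgam1 and Aldoa such copies held under 1% of the reads, and for Eno1 they held 3.31%.

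**Figure D3:**
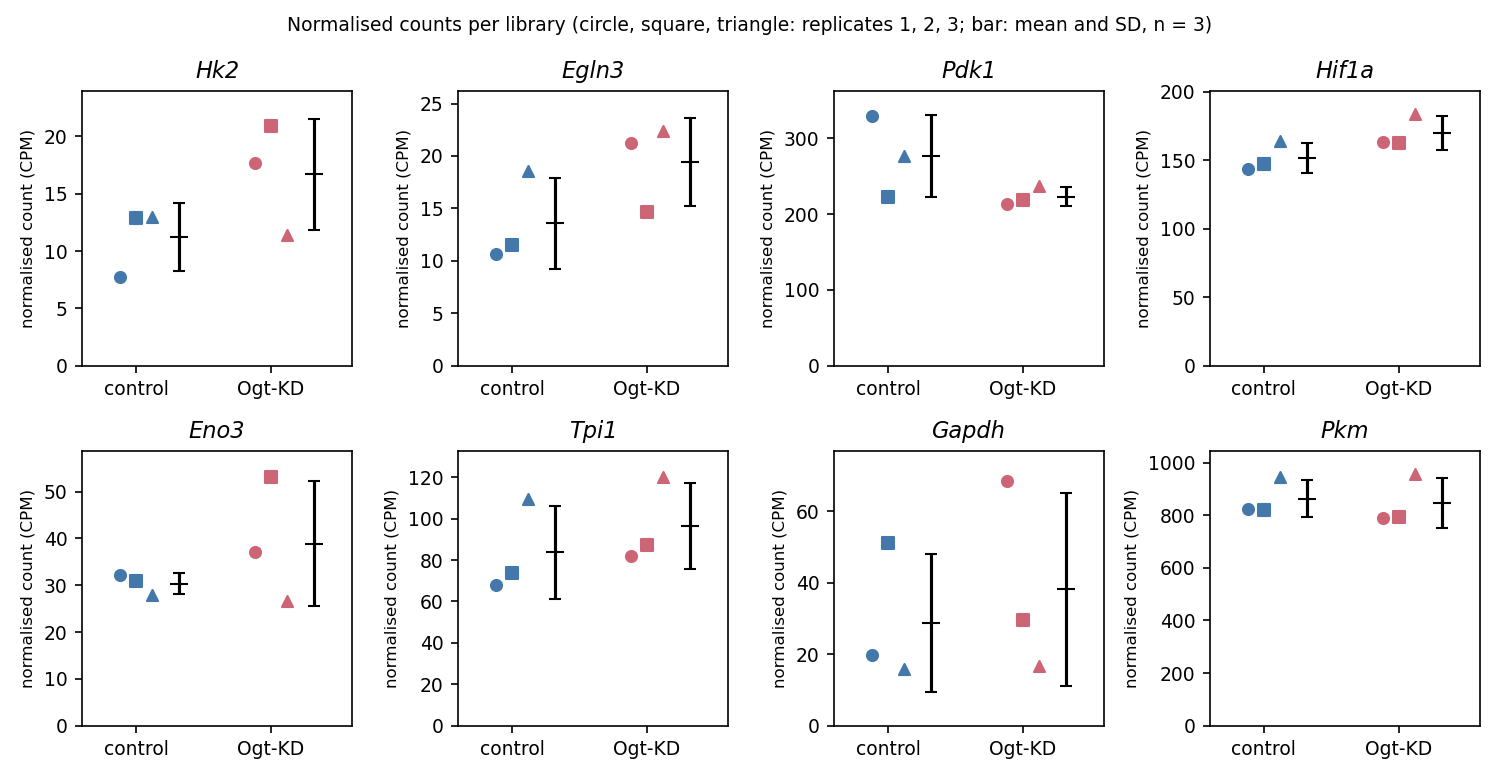
CPM in each library for Hk2, Egln3, Pdk1, Hif1a, Eno3, Tpi1, Gapdh and Pkm, with 1 panel per gene, a circle, square and triangle for replicates 1, 2 and 3, and a bar for the mean and SD of each group (n = 3). The groups overlap in every panel, and the Gapdh points spread over a 4.34-fold range without regard to group.

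Lactate dehydrogenase reduces pyruvate to lactate and restores NAD+. Ldha (chromosome 7, 46841475 to 46855627), the form that predominates in activated T cells, was at 632.9, 585.6 and 673.9 CPM in control and at 566.6, 575.2 and 678 CPM in Ogt-KD. Ogt-KD replicates 1 and 2 lay below all controls and replicate 3 above them (log2 fold change -0.06, SE 0.119, 95% interval -0.34 to 0.22). Ldhb had a log2 fold change of 0.09 (SE 0.182).

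At pyruvate entry into mitochondria, Pdk1 (chromosome 2, 71873224 to 71903858), a kinase that switches the pyruvate dehydrogenase complex off and a known HIF-1 target, was at 330.2, 222.4 and 276.7 CPM in control and at 213.3, 218.4 and 237.2 CPM in Ogt-KD. The 3 Ogt-KD libraries lay close together (SD 12.6), and control replicate 2 stood within their range while the other two controls were higher (SD 53.9). The log2 fold change of -0.31 (SE 0.149, 95% interval -0.66 to 0.04) did not pass the test (edgeR adjusted p = 0.686). Under the replicate block it was -0.29 (edgeR unadjusted p = 0.0475, adjusted p = 0.372). For Pdk3, another of the kinases, the log2 fold change was 0.10 (SE 0.12).

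Pdha1, the catalytic subunit that Pdk enzymes phosphorylate, was at 120.3, 107.3 and 126.2 CPM in control and at 100.9, 92.97 and 117.8 CPM in Ogt-KD. Each Ogt-KD library was below its same-numbered control, and replicate 3 of Ogt-KD lay among the controls (log2 fold change -0.18, SE 0.115, edgeR adjusted p = 0.808). The other subunits had log2 fold changes of -0.02 for Pdhb, 0.05 for Dlat and -0.08 for Dld. Dlat had the lowest SE of the 36, at 0.0836.

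In the oxidative branch of the pentose phosphate pathway, which makes NADPH, Pgd was at 104.1, 118.4 and 114.6 CPM in control and at 94.05, 105.1 and 105.5 CPM in Ogt-KD. Both higher Ogt-KD libraries lay just above the lowest control (log2 fold change -0.15, SE 0.0908, edgeR adjusted p = 0.804). G6pdx, the first and rate-setting enzyme of the branch, gave a log2 fold change of -0.04 (SE 0.114), while Pgls, which opens the lactone it forms, gave 0.0049. Exons of G6pdx share 418 bases with Ikbkg on the other strand, and those of Pgls share 776 bases with Fam129c on the same strand.

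The non-oxidative branch rearranges pentoses into glycolytic sugars. Taldo1, transaldolase, was at 193, 207 and 223.4 CPM in control and at 207, 231.1 and 221.5 CPM in Ogt-KD (log2 fold change 0.08, SE 0.0942), and Ogt-KD replicate 2 alone lay above the controls. Rpia, which makes ribose 5-phosphate, was at 51.97, 45.03 and 46.13 CPM in control and at 54.52, 53.63 and 48.83 CPM in Ogt-KD. Of the Ogt-KD libraries only replicate 3 lay among the controls (log2 fold change 0.13, SE 0.0962, edgeR adjusted p = 0.851). Tkt, transketolase, had a log2 fold change of 0.10 and Rpe, the epimerase, one of -0.12.

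The 3 hypoxia-linked members all had log2 fold changes above 0. Hif1a (chromosome 12, 73901375 to 73947530), the regulated subunit of HIF-1, was at 143.7, 147.4 and 163.9 CPM in control and at 163.2, 162.7 and 183.9 CPM in Ogt-KD. Each Ogt-KD library was above its same-numbered control, but control replicate 3 exceeded Ogt-KD replicates 1 and 2 (log2 fold change 0.16, SE 0.0952, edgeR adjusted p = 0.764). HIF-1 is controlled largely through stability of the protein, which RNA counts do not show.

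Egln3 (chromosome 12, 54178981 to 54203860), a prolyl hydroxylase that marks HIF proteins for breakdown and is itself a HIF-1 target, was at 10.69, 11.48 and 18.59 CPM in control and at 21.26, 14.65 and 22.34 CPM in Ogt-KD. Only control replicate 3 and Ogt-KD replicate 2 were out of order between the groups. The log2 fold change of 0.52 (SE 0.26, 95% interval -0.09 to 1.13) did not pass the test (edgeR adjusted p = 0.701), nor did that of 0.53 with the replicate block (SE 0.17, edgeR unadjusted p = 0.0162, adjusted p = 0.247). Bnip3, a mitophagy receptor and HIF-1 target, was at 4.019, 3.463 and 3.774 CPM in control and at 2.106, 3.244 and 6.673 CPM in Ogt-KD. The Ogt-KD libraries of Bnip3 lay on both sides of the controls, and its log2 fold change of 0.10 (SE 0.409) turned to -0.49 without Ogt-KD replicate 3.

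The replicate block used the shared replicate numbers, which the labels do not state to be pairs. Same-numbered libraries deviated together most in replicate 3 (correlation 0.523) and little in replicate 1 (0.109). It left the number of members past the adjusted threshold at 0, against 47 of all genes (0.292%). Egln3, Tpi1 and Pdk1 reached an unadjusted p under 0.05 with it, which is 8.33% of the members against 13.2% of all genes. Egln3 and Tpi1 were higher in Ogt-KD, as were 7.55% of all genes, and Pdk1 was lower, as were 5.63%.

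Several steps are served by isozymes, so the share of each isozyme in the summed FPKM of the members of its family was computed in each library. Isozymes that are not among the 36 were left out of these sums, such as Hk3, at a mean of 4.582 FPKM against 2.322 FPKM for Hk2. Among the pyruvate dehydrogenase kinases, Pdk3 took 15.39%, 19.02% and 18.74% of the Pdk1 and Pdk3 sum in control and 23.2%, 21.43% and 21.43% in Ogt-KD. These did not overlap, at 17.7% ± 2.019 (SD, n = 3) against 22.0% ± 1.019, a difference of 4.30 points. Pfkfb2 took 14.02%, 12.65% and 16.25% of the Pfkfb2, Pfkfb3 and Pfkfb4 sum in control and 12.41%, 9.969% and 11.11% in Ogt-KD. These shares did not overlap either, at 14.3% ± 1.81 (SD, n = 3) against 11.2% ± 1.22, a difference of -3.14 points. The shares were not tested, and the smallest two-sided exact permutation p that 3 libraries against 3 allow is 0.1. In CPM, Pdk1, Pdk3 and Pfkfb2 each overlapped between groups, whereas 13.3% of all genes did not.

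The other isozyme shares overlapped between groups. Hk2 took 5.626%, 8.549% and 10.35% of the Hk1 and Hk2 sum in control and 11.18%, 12.41% and 10.05% in Ogt-KD, with only Ogt-KD replicate 3 inside the control range. Eno3 took 15.45%, 15.3% and 12.78% of the Eno1 and Eno3 sum in control and 18.43%, 25.05% and 13.19% in Ogt-KD. Ldhb held 5.61% ± 0.0479 (SD, n = 3) of the Ldha and Ldhb sum in control and 6.10% ± 0.759 in Ogt-KD. Aldoc held 0.993% and 1.28% of the Aldoa and Aldoc sum, on average in control and Ogt-KD. Pfkp held the highest share of the 3 phosphofructokinases, at 49.5% and 49.7%, ahead of Pfkl (34.8% and 33.7%) and Pfkm (15.6% and 16.6%).

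**Figure D4:**
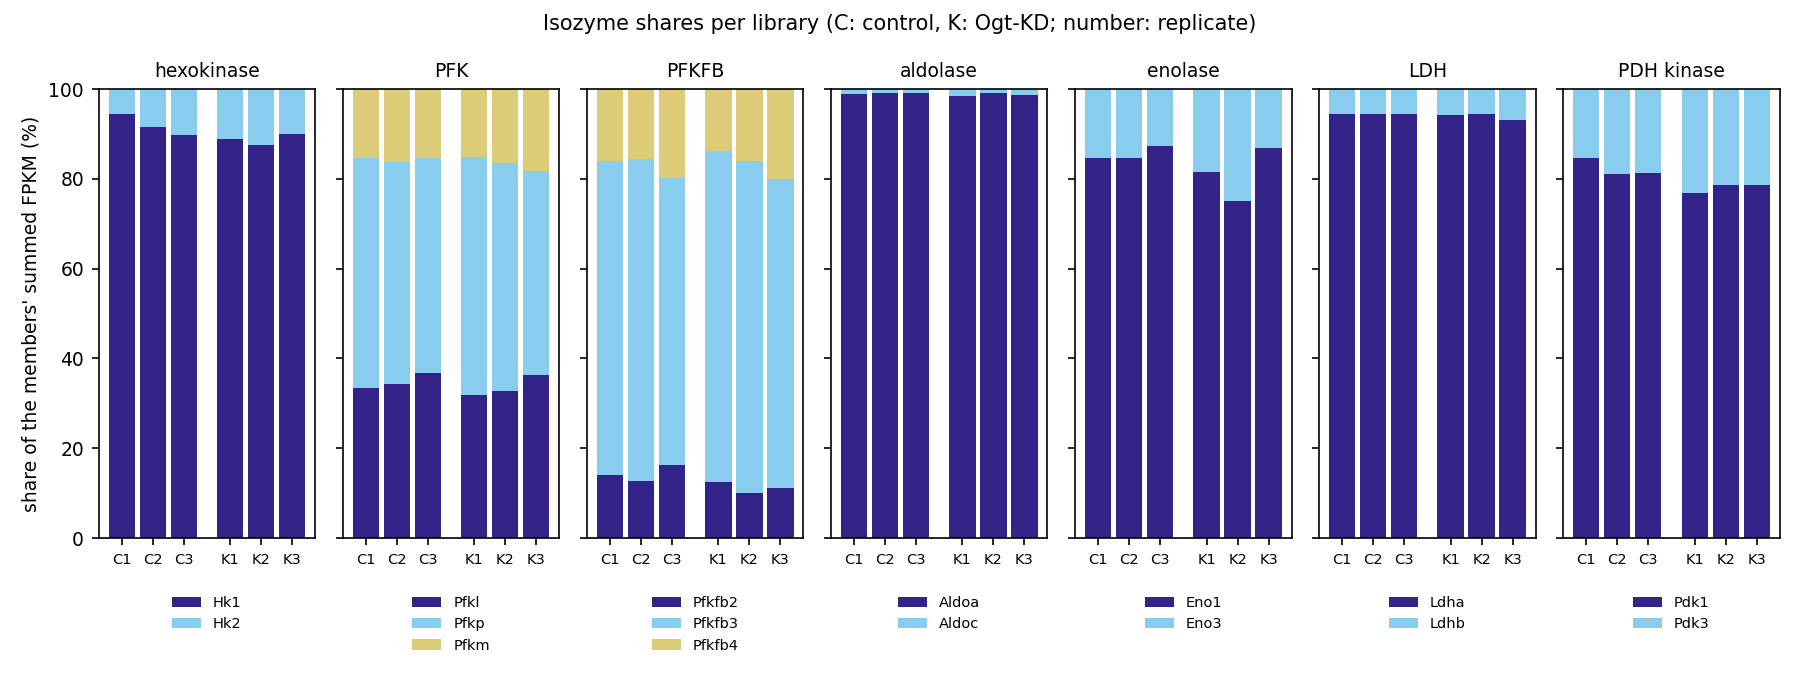
Share of each isozyme in the summed FPKM of the members of its family, in percent, as stacked bars with 1 bar per library (C for control, K for Ogt-KD) and 1 panel for each of 7 families. The Pdk3 and Pfkfb2 segments separate by group, with means in control and Ogt-KD of 17.7% and 22.0% for Pdk3 and of 14.3% and 11.2% for Pfkfb2.

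Replicate 3 stood at the same end of both groups for many members. For 15 of the 36 (41.7%) replicate 3 was the highest library of control and of Ogt-KD alike, as it was for 21.6% of all genes. They were Tpi1, Pgk1, Eno1, Pkm, Ldha, Ldhb, Pdk3, Pdha1, Pdhb, Dlat, Dld, Pgls, Rpe, Hif1a and Egln3. For Hk1, Pfkfb3, Gapdh and Eno3 it was the lowest in both groups (11.1%, against 24.8% of all genes). Summed macrophage markers were also highest in these libraries, and their part in the result was not tested.

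The overlap of the groups also depended on Ogt-KD replicate 3. Without it, 15 of the 36 members (41.7%) had groups that did not overlap, close to the 39.4% of all genes. Hk1, Hk2, Gpi1, Pfkp, Pfkfb3, Eno3, Tkt and Rpia were then higher in both remaining Ogt-KD libraries than in any control. Eno1, Pkm, Ldha, Pdk1, Pdha1, Dld and Bnip3 were lower. Only Hk2 (log2 fold change 0.78), Eno3 (0.57), Pdha1 (-0.28) and Dld (-0.33) reached an unadjusted p under 0.05 in edgeR, or 11.1% of members against 18.4% of all genes, and the lowest adjusted p was 0.160. With replicate 3 of both groups left out, Hk2, Tpi1, Eno3, Pdha1 and Egln3 did so, or 13.9% against 16.1%, and none passed adjustment.

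A further 63 genes of the same pathways were listed for comparison, of which 52 passed the filter on low counts. None passed the edgeR test at an adjusted p under 0.05, and an unadjusted p under 0.05 was found for 7 (13.5%, against 7.52% of all genes). Of these, 2 were higher in Ogt-KD (3.85%, against 5.04%) and 5 lower (9.62%, against 2.48%). With the replicate block 10 had an unadjusted p under 0.05 (19.2%, against 13.2% of all genes), 2 higher and 8 lower, and none passed adjustment. The 3 gained were Prps1l3, Ddit4 and Fam162a, with blocked log2 fold changes of -0.26, -0.52 and -0.32. Their log2 fold changes had a median of -0.07, and 20 of 52 were above 0. By pathway the medians were -0.02 for 14 glycolysis genes, -0.08 for 11 pyruvate entry genes, -0.07 for 7 pentose phosphate genes and -0.08 for 20 hypoxia-linked genes. The groups did not overlap for 8 of the 52 (15.4%), close to the 13.3% of all genes.

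Among these were genes that act beside the members. Egln1, the main HIF prolyl hydroxylase and a relative of Egln3, was at 82.02, 76.8 and 75.31 CPM in control and at 69.07, 64.94 and 62.9 CPM in Ogt-KD, with no overlap (log2 fold change -0.25, SE 0.0811, edgeR adjusted p = 0.583). Its log2 fold change thus had the opposite sign to that of Egln3. Epas1, which encodes HIF-2 alpha, was at 21.78, 18.12 and 15.04 CPM in control and at 13.42, 15.01 and 9.91 CPM in Ogt-KD, where the nearest libraries differed by little (log2 fold change -0.52, SE 0.205, edgeR adjusted p = 0.627). Pfkfb1, the fourth enzyme of the Pfkfb family, was at 2.375, 3.584 and 2.647 CPM in control and at 5.143, 5.019 and 3.716 CPM in Ogt-KD, again with no overlap (log2 fold change 0.68, SE 0.252, edgeR adjusted p = 0.624). For Prps2, which turns ribose 5-phosphate into the nucleotide precursor, the log2 fold change was -0.23 (edgeR adjusted p = 0.589). The collagen hydroxylases P4ha1 and P4ha2 had values of -0.30 and -0.80, and Car9, a carbonic anhydrase and HIF-1 target, one of 0.72 (edgeR adjusted p of 0.624, 0.632 and 0.624). P4ha2 was at a low level, 1.598 to 3.267 CPM in control and 1.225 to 1.419 CPM in Ogt-KD (SE 0.32). So was Car9, at 1.461 to 1.853 CPM and 2.155 to 3.447 CPM in the same order (SE 0.271).

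**Figure D5:**
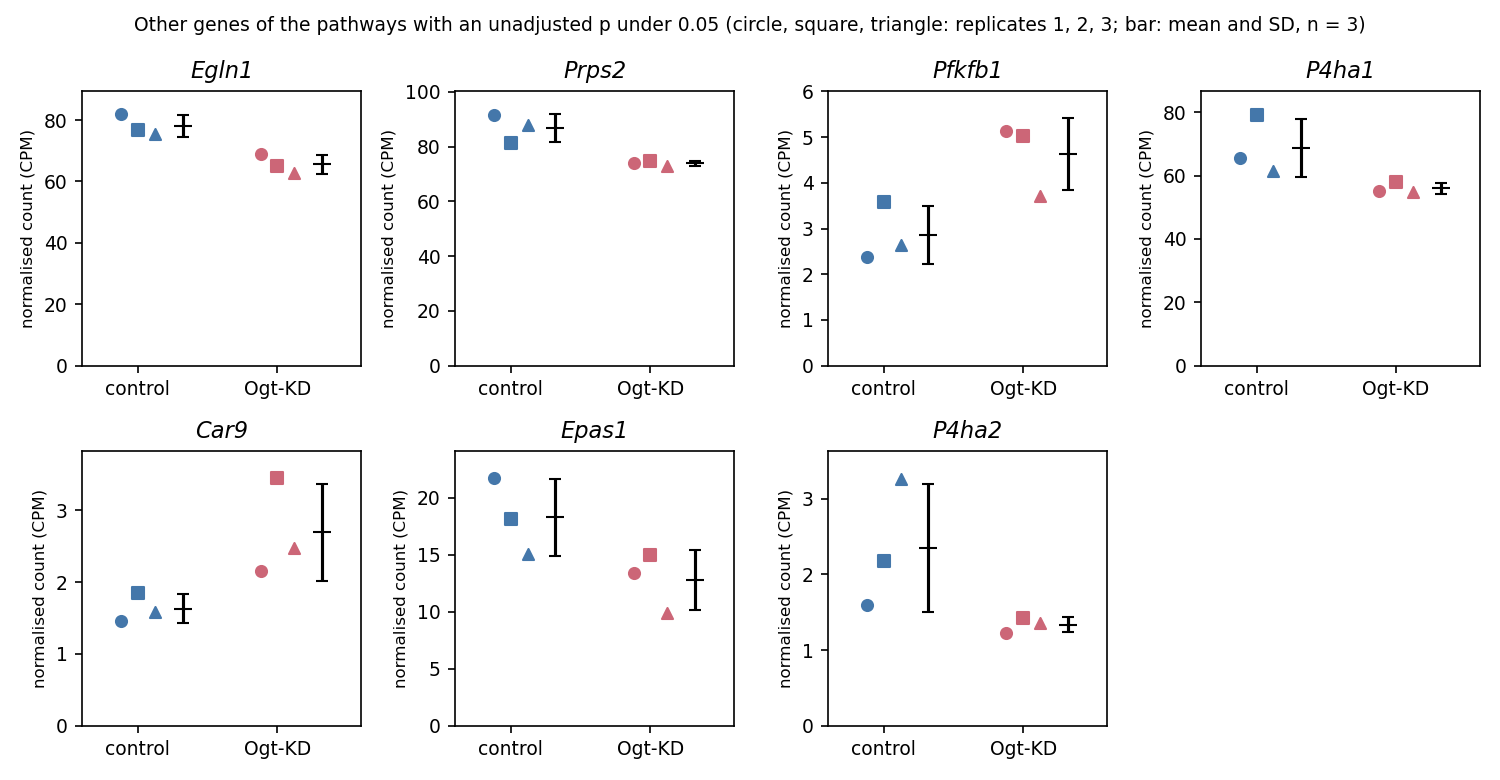
CPM in each library for the 7 other pathway genes at an unadjusted p under 0.05, with a circle, square and triangle for replicates 1, 2 and 3 and a bar for the mean and SD of each group (n = 3). Pfkfb1 and Car9 are higher in the 3 Ogt-KD libraries and Egln1, Prps2, P4ha1, Epas1 and P4ha2 lower, with no overlap in any panel.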

How the data were processed

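RNA was sequenced from CD4+ T cells of 3 Ogt-KD and 3 control mice, with an Illumina TruSeq kit per the labels' protocols. Alignment tools and build, per the submitters' processing notes, were TopHat2 2.0.9, Bowtie2 2.0.6 and mm9, while the table's coordinates are those of GRCm38, which are used here. How reads were counted, whether by strand, and which test the authors ran is, for this table, not given in the sources used here; its values are used as deposited. The authors deposited raw read counts per gene, and FPKM, which equal the count over gene length (an other unit, in bases) and 1 constant per library. The signal column, a group mean of normalised counts by the authors, was not used for the results given here. The authors' log2 fold change was read with the authors' p-value.

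Counts were fitted with edgeR 4.0.16 (robust quasi-likelihood F test, TMM, filterByExpr) in R 4.3.3 over all 16075 genes passing the filter, with Benjamini-Hochberg adjustment over them and a threshold of 0.05. CPM are edgeR's counts scaled by library size and TMM factor. DESeq2 1.42.0, limma-voom 3.58.1, no filter, DESeq2 size factors, the replicate block and left-out libraries were alternatives. After removal of group means, same-numbered libraries of both groups correlated at 0.109, 0.347 and 0.523. The numbers were therefore used to pair libraries in the replicate block only, from the data and not from the labels. The main fit used no pairing. Ogt-KD replicate 1 correlated more with control replicate 2, at 0.267, than with control replicate 1, at 0.109, so the pairing is uncertain. Copies were found with BLAST 2.17.0 against GENCODE M21. RefSeq promoter windows matched all 36 members. Each library is 1 mouse, per the series' design. No pair of libraries was a copy of another.

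Per-library values are given for the 12 members with the smallest unadjusted p, for the member with the highest FPKM of each step and, chosen after their values were seen, for Gapdh, Tpi1 and Bnip3. Other pathway genes were named at an unadjusted p under 0.05. The members and gene lists were chosen with earlier results of these data known. The edgeR fit was tested on counts simulated with a common dispersion, no replicate effect and changes of 2-fold or more. That test does not bear on the smaller changes of most members.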

Additional observations from a re-analysis of the deposited data

How the results depend on the processing

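No member passed an adjusted p under 0.05 in edgeR under any alternative, in DESeq2 or in limma-voom, and 22 of the 36 members kept 1 sign in all 13 settings. The number of members at an unadjusted p under 0.05 was 0, and it was 1 with no filter (2.78%, against 5.4% of all genes), 3 with the replicate block (8.33%, against 13.2%), 5 without both replicate 3 libraries (13.9%, against 16.1%), and 0 to 4 with single libraries left out (all genes 4.32% to 18.4%). All genes past the adjusted threshold numbered 1, and 4 with no filter, 47 with the replicate block, 35 without both replicate 3 libraries, 111 in DESeq2, and 1 to 2 with single libraries left out. The replicate block also raised the other pathway genes at an unadjusted p under 0.05 from 7 to 10 and changed no adjusted call among them or the members. Members whose groups do not overlap numbered 0, 1 with DESeq2 size factors (2.78%, against 13.5% of all genes), 1 with no filter (against 10.8%), and 2 to 15 with single libraries left out (all genes 19% to 39.4%), the highest without Ogt-KD replicate 3. With single libraries left out, members with an interval within 1.5-fold numbered 24 to 26, against 27, and the median log2 fold change was 0.03 to 0.06. That number was 29 with the replicate block and 29 without both replicate 3 libraries, where the median was 0.09. The causes were not tested.

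The sign turned for some members near 0 and for Gapdh, whose log2 fold change over all 6 libraries was 0.40. Without both replicate 3 libraries the log2 fold changes were 0.0307 for Pfkl, -0.0759 for Ldhb, 0.0334 for G6pdx, -0.0483 for Pgls and -0.49 for Bnip3. It was -0.00967 for Pgls with no filter, and for Bnip3 -0.0389 with the replicate block and -0.0248 in limma-voom. With single libraries left out, the ranges that cross 0 were -0.0663 to 0.18 for Hk1, -0.0628 to 0.16 for Pfkp, -0.00581 to 0.17 for Pfkfb4, -0.33 to 1.10 for Gapdh, -0.0215 to 0.17 for Pgk1, -0.11 to 0.13 for Pgam1, -0.13 to 0.025 for Pkm, -0.13 to 0.20 for Ldhb, -0.20 to 0.0656 for Pdhb, -0.33 to 0.0533 for Dld, -0.12 to 0.0365 for G6pdx, -0.0678 to 0.0556 for Pgls and -0.49 to 0.41 for Bnip3.

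With single libraries left out, the difference in isozyme share ran, in points, from 1.76 to 4.13 for Hk2, -2.53 to -0.26 for Pfkl, -1.45 to 2.37 for Pfkp, 0.152 to 1.73 for Pfkm, -3.97 to -2.17 for Pfkfb2, 1.23 to 5.203 for Pfkfb3, -2.09 to 1.004 for Pfkfb4, 0.187 to 0.426 for Aldoc, 1.30 to 7.23 for Eno3, 0.075 to 0.81 for Ldhb and 3.14 to 4.95 for Pdk3. Aldoc and Bnip3 were the members with the fewest reads, 516 and 515 over the 6 libraries. The SE was widest for Gapdh (0.608) and Bnip3 (0.409), and that of Aldoc was 0.225. The part of depth in these SEs was not tested.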
